A study of Mus musculus with 4 samples.

Results

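The 7 genes described here are Six2, Six4 and Six5, which encode homeodomain transcription factors of the sine oculis family, and Eya1, Eya2, Eya3 and Eya4, which encode their coactivators. They were taken by name from the 32285 genes of the deposited count matrices, and all 7 were detected in every file. Not every gene of that family is described. The cells were muscle stem cells from mice with a MyoD knock-in (MyoD-KI), held in growth medium for 5 days and then sorted for high MyoD-tdTomato, a red fluorescent reporter of the myogenic factor MyoD. All samples form 1 group of 4 labelled replicates, with no control group. The strain, sex, age and number of mice are not given in the sources used here. The labels give about 10000 cells as processed with the 10x Genomics 3-prime v3.1 kit, which tags each captured transcript with a unique molecular identifier (UMI).

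The sine oculis proteins bind DNA through a homeodomain and have little activating function of their own. Eya proteins do not bind DNA. They are recruited by sine oculis proteins, bring an activation domain to the target gene, and also carry a tyrosine phosphatase domain. Dach and Tle (Groucho) proteins act in the same network as corepressors. In the muscle lineage the homeodomain partners occupy MEF3 sites, one of which lies in the promoter of Myog, the gene of the myogenic factor that opens terminal differentiation, and they also act on fast-type muscle genes.

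The promoter of Myog is shown because cells are grouped by Myog below and because it holds the best known binding site of these factors in muscle. The stretch chr1:134289754-134289988 (GRCm38, plus strand, from RefSeq) ends at the base before the GENCODE gene, and the capitals mark its MEF3 motif, which begins 84 bases upstream of the RefSeq start.

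Myog promoter: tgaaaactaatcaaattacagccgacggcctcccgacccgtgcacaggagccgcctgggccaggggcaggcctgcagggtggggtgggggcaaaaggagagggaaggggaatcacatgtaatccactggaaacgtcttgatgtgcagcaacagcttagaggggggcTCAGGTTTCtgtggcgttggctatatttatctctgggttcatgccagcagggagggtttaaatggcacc

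RefSeq windows were at hand for 5 of the 7 members, Eya1 and Eya2 having no entry. Among these 5, the same motif was found only in a window of Six4, on the opposite strand, 99 bases upstream of 1 of its 2 RefSeq starts and inside an exon of the longer GENCODE transcript. It is shown with its flanks, chr12:73113326-73113354, minus strand, with the motif in capitals.

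Six4 site: tggcctggggGAAACCTGAtcggccagat

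The motif searched was TCAGGTTTC on both strands, in RefSeq windows from 250 bases before to 50 after each start. It occurred in 141 of 32851 windows, or 0.429%, and the looser form TCAGGTTNC, which includes it, in 1.21%. The windows of Six2, Six5, Eya3 and Eya4 held neither form. An E-box CANNTG, the kind of motif bound by MyoD and Myog proteins, occurred in 72.3% of all windows and in those of Eya3, Eya4 and Myog, but in none of Six2, Six4 and Six5. A match is a stretch of letters, and binding was not measured.

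The 4 files held 5950 to 5974 barcodes each and 62627341 to 68898900 UMIs. Every pair of files shared 99.9% of the barcodes of the smaller one, and 99.9% to 100% of cells correlated best with their own barcode in the other file. The files were therefore counted as repeat libraries of 1 set of cells (n = 1), no p-value was computed, and ranges over files measure the repeatability of library sampling. Of 5944 barcodes in all files, 5481 were kept, with a median of 11049 UMIs per file. Muscle genes were abundant, with Myog at 1803 and Myod1 at 507 UMIs per 1000000 (CPM), while all 3 endothelial, 3 immune and 2 adipocyte markers stayed below 1 CPM. Of 5 fibroblast markers, 3 were below 1 CPM and the summed level was 141 CPM, most of it Col3a1 at 110 CPM. The 3 pericyte markers summed to 55.6 CPM, most of it Notch3 at 50.3 CPM, with Kcnj8 at 0.0303 CPM.

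Eya4 was by far the most abundant member. The 4 files gave 482, 481, 480 and 478 CPM, with a mean of 480 and a 95% counting interval of 475 to 486. It ranked at 284 of all genes, close to the level of Myod1 itself. Eya4 (ENSMUSG00000010461) lies on chromosome 10 from 23102963 to 23350786 on the minus strand, and mutations in its human counterpart cause hearing loss and heart muscle disease. It supplied 90.8% of the UMIs of the 4 Eya genes.

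Six4 was the leading sine oculis gene among those described. It measured 42.0, 41.5, 41.5 and 40.2 CPM in the 4 files, a mean of 41.3 (interval 39.8 to 42.9), and supplied 88.1% of the UMIs of Six2, Six4 and Six5 together. Six4 (ENSMUSG00000034460) lies on chromosome 12 from 73099609 to 73113456, minus strand, and is known for a role in muscle formation that overlaps with that of its relatives. The UMIs of Eya4 outnumbered those of Six4 by 11.6 to 1.

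Eya3 (ENSMUSG00000028886, chromosome 4, 132638987 to 132724765, plus strand), a broadly expressed member, followed at 30.6 CPM (29.3 to 32). Eya1 (ENSMUSG00000025932, chromosome 1, 14168954 to 14310235, minus strand), whose loss disturbs ear, kidney and muscle development, stood at 13.5 CPM (12.6 to 14.4). Their file ranges were 30.2 to 31.3 and 12.8 to 14.0 CPM. Each of these 4 levels was separated from its neighbour in the order by more than the counting intervals.

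The next neighbours were not separated. Six2 (ENSMUSG00000024134, chromosome 17, 85684277 to 85688274, minus strand), best known for keeping kidney progenitors undifferentiated, reached 4.70 CPM (4.19 to 5.26). Eya2 (ENSMUSG00000017897, chromosome 2, 165595032 to 165771727, plus strand) reached 4.52 CPM (4.03 to 5.07), so the intervals overlap. A lincRNA gene in the count table, Gm28163, overlaps Eya2 on the opposite strand. Six5 (ENSMUSG00000040841, chromosome 7, 19094594 to 19098549, plus strand) was lowest at 0.886 CPM (0.675 to 1.15), from 58.5 UMIs per file. All 7 are protein-coding genes.

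**Figure D1:**
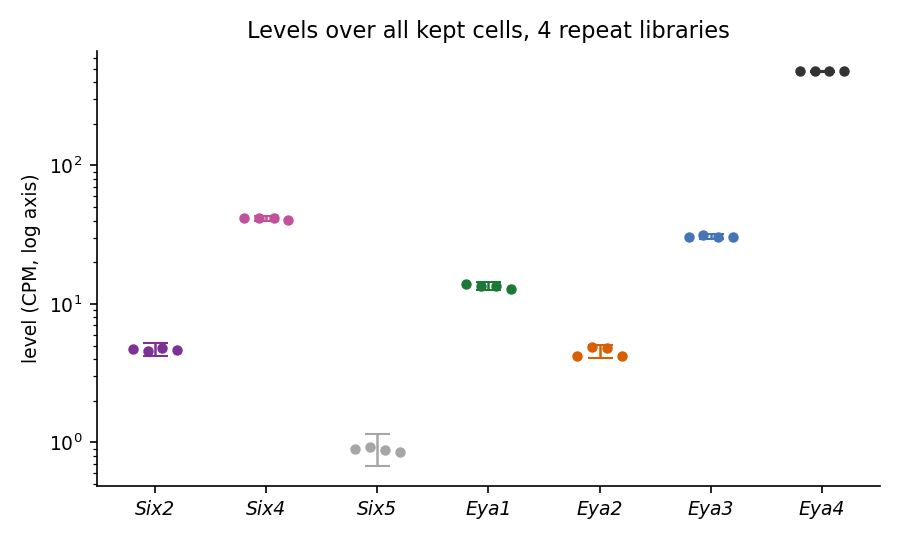
Level of each member over all 5481 kept cells in CPM on a log axis. The points are the 4 repeat libraries and the bars the 95% Poisson interval at the mean count of 1 file. Eya4 sits at 478 to 482 CPM in the 4 files, Six4 at 40.2 to 42.0 and Six5 below 1.

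A UMI count from the 3-prime end is a count of captured molecules and was not divided by length, and the sources do not say whether intronic reads were counted. Divided by merged exon length, Eya4 still led with 51.0 CPM per kb, ahead of Eya3 at 5.42 and Six4 at 3.81. Divided by the length of the whole gene, Six4 led with 2.98 CPM per kb and Eya4 followed at 1.94. The order of Eya4 and Six4 thus depends on which length is used, since Eya4 spans 248 kb and Six4 13.8 kb. Of the 2 other genes of the family looked up for comparison, Six3 had 6.25 UMIs per file, or 0.0947 CPM, and Six6 had 0, which allows up to 0.0559 CPM.

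Detection per cell was compared after thinning each cell to 5000 UMIs per file, which kept 5197 cells. A UMI of Eya4 was found in 78.0% of these cells, with a 95% binomial interval of 76.9% to 79.2%, and in 89.3% without thinning. Six4 was found in 17.5% (16.5% to 18.5%, unthinned 35.2%) and Eya3 in 13.7% (12.8% to 14.7%, unthinned 28.9%). Most cells therefore showed Eya4 in any 1 file, and most showed no UMI of any other single member.

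Eya1 was found in 5.66% of cells (5.05% to 6.33%, unthinned 12.1%) and Six5 in 0.423% (0.265% to 0.640%, unthinned 1.04%). Six2, at 2.31% (1.92% to 2.76%, unthinned 5.09%), and Eya2, at 1.99% (1.63% to 2.41%, unthinned 3.79%), again had overlapping intervals. The sample holds no cell type that should lack these genes, so the share owed to free RNA was not measured. In the 463 barcodes left out of the kept cells, shallow ones with 1207 UMIs and 40.9% mitochondrial RNA at the median, Eya4 stood at 2207 CPM of non-mitochondrial UMIs, Eya3 at 108, Six4 at 62.8 and Eya1 at 52.9. Those are higher levels than in the kept cells for all 4 genes.

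The share of detections that recur in another file of the same cell was also computed. Since the files are repeat libraries, a recurrence can be the same molecule counted again, and the share does not by itself measure how a gene is spread over cells. For Eya4, 85.3% of detections recurred, and its UMIs per cell varied 2.30 times as much as their mean. Six4 recurred in 26.1% of cases, Eya1 in 21.1% and Eya3 in 21%, with variance-to-mean ratios of 1.08, 1.17 and 1.03. Eya1 thus recurred as often as Eya3 although it was found in fewer cells.

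Eya2 and Six2 had the same level within counting error. An Eya2 detection recurred in another file in 25.5% of cases, against 8.52% for Six2, and the variance-to-mean ratios were 1.44 and 1.06. Cells with at least 3 Eya2 UMIs among the 20000 summed over the files numbered 44, or 0.847% of all, and held 38.6% of all Eya2 UMIs. For Six2, 10 such cells held 6.37% of its UMIs. The Eya2-rich cells were spread over the stages. Of them 25% were at 8 to 31 and 34.1% at 32 to 95 Myog UMIs, beside 11.7% and 28.9% of all thinned cells. None was among the 442 late myocytes described below, which made up 8.5% of thinned cells. By the same cut, late cells were 8 of 394 for Six4, 1 of 88 for Eya1 and 6 of 214 for Eya3. For Eya4 they were 380 of 4345. UMIs summed over the files can count a molecule more than once.

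**Figure D2:**
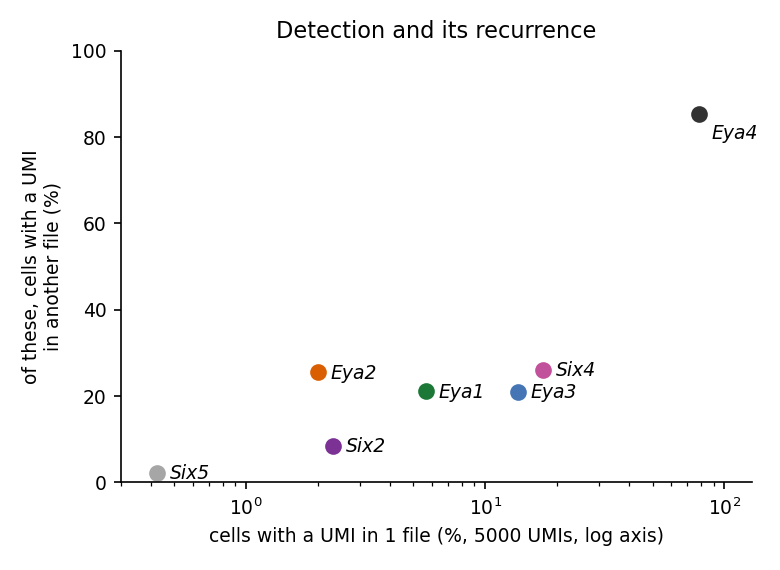
Share of thinned cells with a UMI of each member in 1 file (percent, log axis) against the share of those cells that also have one in another file (percent, mean over file pairs). Eya2 at 25.5% recurrence sits well above Six2 at 8.52% although both are found in about 2% of cells.

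To follow the members through differentiation, thinned cells were grouped by Myog UMIs out of 20000 summed over the files, into 0, 1 to 7, 8 to 31, 32 to 95, and 96 or more. These groups held 759, 1625, 609, 1502 and 702 cells. None of the 7 members was used to form them. The members followed different courses.

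Eya1 was highest in undifferentiated cells and declined across the groups, with 20.2, 19.2, 14.4, 5.26 and 2.56 CPM. Its share of cells with a UMI went from 8.89% to 1.25%. Six2 and Six5 had the same shape at lower levels, with 6.92, 7.63, 5.83, 2.26 and 0.712 CPM for Six2 and 1.45, 1.45, 0.739, 0.266 and 0.142 CPM for Six5. From the group of 8 to 31 UMIs to that of 32 to 95, Eya1 differed by a log2 ratio of -1.29 (-1.87 to -0.71) and Six2 by -1.07 (-1.84 to -0.25), while the interval of Six5, at -0.46 (-1.16 to 0.44), includes 0.

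Eya2 and Eya4 were highest at intermediate Myog. Eya2 measured 2.5, 5.32, 8.13, 5.16 and 2.49 CPM, so the 8 to 31 group exceeded the Myog-negative cells by a log2 ratio of 1.35 (0.47 to 2.25) and the 96 or more group by 1.37 (0.46 to 2.27). Eya4 measured 397, 458, 569, 520 and 394 CPM, with smaller ratios of 0.52 (0.42 to 0.62) and 0.53 (0.43 to 0.63) for the same pairs of groups. The same 2 ratios for Eya4 were 0.51 and 0.57 without the Malat1-poor cells described below, so the peak was as large without them. For Eya2 they were 1.23 and 1.33. With all cells, the log2 ratio of the 32 to 95 group over the 8 to 31 group was -0.53 (-1.23 to 0.11) for Eya2. That interval includes 0, so the 2 groups were not separated for Eya2. For Eya4 it was -0.13 (-0.21 to -0.05). Ratios between these groups, also those of the other members, are in CPM and were not recomputed under other scalings. With 96 or more Myog UMIs against 0, the median log2 ratio of all genes tested was -0.35. Whether the peak of Eya4 holds under other scalings was not tested.

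Six4 and Eya3 stayed within a 2-fold range over the whole course, as did Eya4. Six4 measured 39.3, 43.6, 49.8, 36.4 and 30.8 CPM, and its 8 to 31 group exceeded the 96 or more group by 0.68 (0.32 to 1.04). Eya3 went from 35.3 to 20.7 CPM, with 32.2, 32.1 and 27.8 CPM between. Eya3 had its highest mean in Myog-negative cells and Six4 at 8 to 31 UMIs.

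Other quantities moved with the Myog groups as well. The summed fibroblast markers went from 234 CPM in Myog-negative cells to 43.1 CPM at 96 or more UMIs. The pericyte markers, over all kept cells mostly Notch3, went from 114 to 4.84 CPM. The share of Malat1-poor cells was 10.1% in the first group and 4.19% at 32 to 95 UMIs. Their part in the courses of the members was not tested, apart from the values without Malat1-poor cells.

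**Figure D3:**
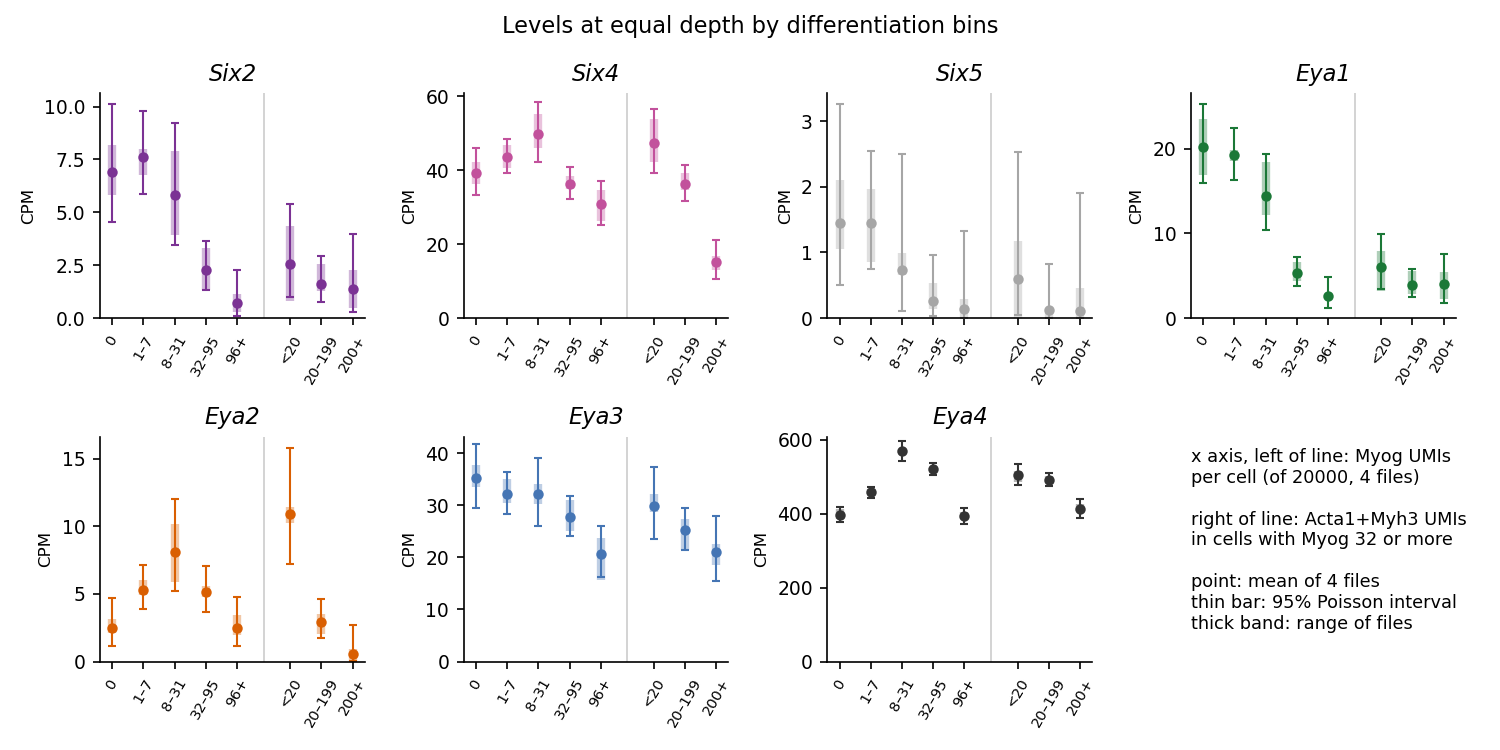
Level of each member in CPM at equal depth in the 5 Myog groups (left of the grey line) and, within cells of 32 or more Myog UMIs, in 3 groups of Acta1 plus Myh3 UMIs (right of it). Points are means of 4 files, thin bars 95% Poisson intervals and thick bands the range of the files. Among the Myog groups, Eya1, Six2 and Six5 decline with Myog, and Eya2 and Eya4 have their highest mean at 8 to 31 UMIs. Among the Acta1 plus Myh3 groups, Eya2 reaches 10.9 CPM under 20 UMIs, and Six4 and Eya2 are lowest at 200 or more.

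For a comparison on the scale of all genes, the 2204 cells with 32 or more Myog UMIs were set against the 759 with none. A gene was called higher or lower when its log2 ratio of CPM plus 1 was at least 1 in size with the same sign in every file, and a gene needed at least 50 UMIs in every file to be tested. Of the 7 members 5 were tested and 1, Eya1, was called, as lower. Over all 10124 genes tested, 17.5% were called lower and 8.69% higher. The median log2 ratio of all genes was -0.24, and it moved to 0.08 with median-ratio size factors and 0.11 with TMM factors, and ratios of that size are read against it. The share of all calls that were higher was 33.2% in CPM, 50.5% with median-ratio factors and 52.4% with TMM.

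Eya1 measured 4.08, 4.26, 5.44 and 3.81 CPM in the Myog-high cells of the 4 files and 23.5, 21.9, 18.7 and 16.9 CPM in the Myog-negative cells. The 2 sets of values did not overlap, and the log2 ratio was -1.97 (-2.44 to -1.5), a 3.92-fold difference. It kept the call in all 14 other settings tried. Six2 had a ratio of -1.54 (-2.16 to -0.83), from 1.77 against 6.92 CPM, but its counts were under the minimum, so it was not called. Six5, also under the minimum, had -0.98 (-1.52 to -0.10).

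The other members did not reach 2-fold. Six4 had a ratio of -0.18 and changed sign, to 0.15 and 0.19, under the 2 other scalings. Eya3 had -0.46, which shrank to -0.13 and -0.09. Eya4 had 0.28 and Eya2 0.61, and both came to -0.01 when only cells with 96 or more Myog UMIs formed the upper side. Over the 14 other settings Eya4 ranged from -0.01 to 0.65 and Eya2 from -0.01 to 0.89.

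Further genes of the network were read from fixed lists, chosen for what they are known to do. Of 13 partners and corepressors of the members, 7 were tested, 4 were lower and none higher in Myog-high cells. Those lower were Pax7 (-3.85), a stem cell factor upstream of the myogenic genes, its relative Pax3 (-1.87), Sobp (-2.44), which encodes a Six-binding nuclear protein, and the corepressor gene Tle1 (-1.09). Tle1 fell short of 2-fold under both other scalings, at -0.77 and -0.74. Tle4 and Tle3 had the highest ratios of the list at 0.82 and 0.39, and Tle4 passed 2-fold under both other scalings, at 1.12 and 1.15. The median of the 7 was -1.09, beside -0.24 for all genes tested.

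Muscle and growth genes were read in the same way, beside 8.69% higher and 17.5% lower among all genes. Of 16 fast muscle genes, the kind on which sine oculis proteins are known to act, 13 were tested and 12 were higher, with a median of 3.35, led by the myosin genes Myh1 (6.61) and Myl1 (5.99), with Aldoa (1.14) and Eno3 (0.96) lowest. Of 8 slow muscle genes 6 were tested and 5 were higher, with a median of 3.85, led by the troponin genes Tnni1 (5.40) and Tnnc1 (5.07), with Mybpc1 (1.86) and Atp2a2 (0.81) lowest. All 4 tested of 5 growth genes linked to sine oculis proteins were lower, namely Ccnd1 (-3.27), Myc (-2.0), Ezr (-1.56) and Ccna2 (-1.26), the last being -0.92 and -0.89 under the other scalings. Among 6 myogenic regulators 4 were higher, with Mef2c (5.22) and Mef2a (2.18) first, and Myf5 was lower (-3.01). Myf6, which follows it in the order, had 0.84, and 1.13 and 1.16 under the other scalings. These counts describe the cells and do not show the action of any member.

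Six5 has a close neighbour, Dmpk, whose 3-prime end lies 772 bases upstream on the same strand and whose human counterpart carries the repeat expansion of myotonic dystrophy. Dmpk stood at 156 CPM, far above the 0.886 CPM of Six5. Its ratio with Myog was 0.90, or 1.23 and 1.27 with the other scalings, opposite in sign to that of Six5.

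Within Myog-high cells, those at the start of sarcomere formation were set against those far along it, by the sum of Acta1 (skeletal actin) and Myh3 (embryonic myosin) UMIs. The 442 late cells had 200 or more and the 508 early cells under 20. Only 3 members had enough UMIs to be tested, and Six4 was called lower. Over 6888 genes tested, 14.6% were called lower and 6.56% higher, with a median of -0.37 that became 0.04 and 0.00 with the other scalings. Of all calls 31% were higher in CPM, against 56.9% and 54.4% with the other scalings.

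Six4 measured 13.1, 16.7, 16.7 and 14.0 CPM in late cells and 50, 53.9, 42.9 and 42.1 CPM in early cells, with no overlap. The log2 ratio was -1.58 (-2.14 to -1.04), a 2.99-fold difference, and the call held in all 14 other settings. The 1254 cells between the 2 groups lay between them at 36.3 CPM. The share of cells with a Six4 UMI was 20.6% in early and 6.96% in late cells. Six4 therefore varied more within the Myog-high cells than across the Myog groups.

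Eya2 went lower still, from 11, 11.4, 10.2 and 11 CPM in early cells to 0.905, 0.452, 0 and 0.905 CPM in late ones. The ratio was -2.98 (-3.59 to -1.55), but it rests on 1.25 UMIs per file in late cells and 27.8 in early ones, too few to be tested. With a minimum of 20 UMIs in place of 50, Eya2 was called lower. The early Myog-high cells also exceeded the Myog-negative cells in Eya2, by a log2 ratio of 1.78 (0.87 to 2.62), from 10.9 against 2.5 CPM. The 125 cells with 8 to 31 Myog and 1 to 3 Mki67 plus Top2a UMIs had 12.4 CPM of Eya2 (5.27 to 24.7), an interval that holds the level of the early cells.

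The other 2 members tested did not reach 2-fold. Eya4 measured 506, 493 and 414 CPM in early, intermediate and late cells, and its late-to-early ratio of -0.29 turned to 0.13 and 0.09 under the other scalings. Eya3 had -0.49 (-1.02 to 0.04), or -0.08 and -0.12 under those scalings. Of the list genes tested, 10 of 12 fast and 3 of 6 slow muscle genes were called higher in late cells. So were 2 of 5 myogenic regulators and 1 of 4 partners and corepressors, and none of these 4 lists had a lower gene. The 2 growth genes tested were lower. Among all genes tested 6.56% were higher and 14.6% lower. For example, Mef2c (4.29) and Tle4 (1.89) were higher in late cells, while Ccnd1 (-2.93) and Ccna2 (-4.35) were lower. Depth and nuclear RNA differed too, with a median of 9740 UMIs and 8.66% Malat1-poor cells in the early group and 12421 UMIs and 5.2% in the late group. Both sides were thinned alike, and Six4 kept its call without the Malat1-poor cells.

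Pax7, which marks muscle stem cells and cells that return to that state, was read next. Over all cells, Eya1 went with Pax7 from 7.02 CPM at 0 UMIs to 18.1, 18.8 and 24.8 CPM at 1, 2 to 3, and 4 or more UMIs, but Pax7 itself is low where Myog is high. The comparison was therefore made among cells with 0 to 7 Myog UMIs, 1190 with 2 or more Pax7 UMIs against 651 with none. None of the 5 members tested passed 2-fold, where 1.07% of 9469 genes were called higher and 0.0106% lower.

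Below the 2-fold mark, Eya1 had the highest ratio at 0.62 (0.15 to 1.10), from 21.8 against 13.9 CPM, and Eya4 followed at 0.48 (0.38 to 0.58). Eya3 had 0.43 (0.08 to 0.79), Six4 0.30 (-0.01 to 0.61) and Six2 -0.16 (-0.82 to 0.49), beside a median of 0.15 for all genes. Malat1-poor cells made up 21.5% of the Pax7-negative cells in this Myog range and 1.98% of those with 4 or more Pax7 UMIs. Without them the ratios were 0.38 for Eya1, 0.25 for Eya4, 0.25 for Eya3 and 0.13 for Six4. Setting 4 or more Pax7 UMIs against 0 gave 0.57 for Eya4 and 0.83 for Eya1, and 0.32 and 0.58 without those cells.

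Proliferation was read from the sum of Mki67 and Top2a UMIs, with 4 or more taken as cycling and 0 as not cycling. Among cells with 0 to 7 Myog UMIs, 1375 cycling cells were set against 580 others. No member of 5 tested passed 2-fold, where 6.65% of 9600 genes were called higher and 2.38% lower. Eya4 was 414 CPM in cycling and 512 CPM in non-cycling cells, a ratio of -0.31 (-0.40 to -0.22). Six4, at 43.3 and 43.4 CPM, gave 0.00 (-0.30 to 0.30), and Eya3 gave 0.03 (-0.30 to 0.38). The ratio of Eya4 ranged from -0.37 to -0.12 over the 14 other settings. At 1 to 3 Mki67 plus Top2a UMIs in this Myog range Eya4 was 419 CPM. Over all thinned cells Eya4 measured 491, 481, 405 and 489 CPM at 0, 1 to 3, 4 to 15, and 16 or more.

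Among cells with 8 or more Myog UMIs, 586 were cycling and 1632 were not, and Eya1 was the 1 of 4 tested members called, as higher. Over 9229 genes, 9.67% were called higher and 4.37% lower, around a median of 0.16. The share of calls that were higher, 68.9%, was 53.6% and 52.2% under the other scalings. Eya1 measured 11.6, 14.7, 15 and 12.6 CPM in cycling and 6.25, 3.8, 5.27 and 3.68 CPM in other cells, without overlap, and the ratio was 1.35 (0.73 to 1.92). With 16 or more UMIs as the cycling side, 264 cells, the ratio was 1.64 but the counts of Eya1 fell under the minimum. Cycling cells in this range also had less Myog-linked RNA, with Mef2c at -2.52 and Myh1 at -2.63, and more Pax7 at 1.94. At 8 to 31 Myog UMIs, Eya1 measured 19.2 CPM in 271 cycling cells (12.5 to 28.1) and 12.0 in 213 others (6.33 to 20.6). At 32 to 95 it was 8.76 CPM in 291 cycling cells (4.63 to 15.1) and 4.52 in 884 others (2.76 to 6.99). Both pairs of intervals overlap, and only 24 cycling cells had 96 or more. The part of these differences in the Eya1 ratio was not tested.

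Eya2, with 9.04 against 3.74 CPM, had a ratio of 1.07 (0.39 to 1.75) in these cells and Six2, with 4.61 against 1.99 CPM, one of 0.91 (0.04 to 1.72), both under the count minimum. Leaving out replicate 1 brought Eya2 past both limits. Six4 had 0.46 (0.16 to 0.75), and Eya3 and Eya4 had 0.17 and 0.09.

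**Figure D4:**
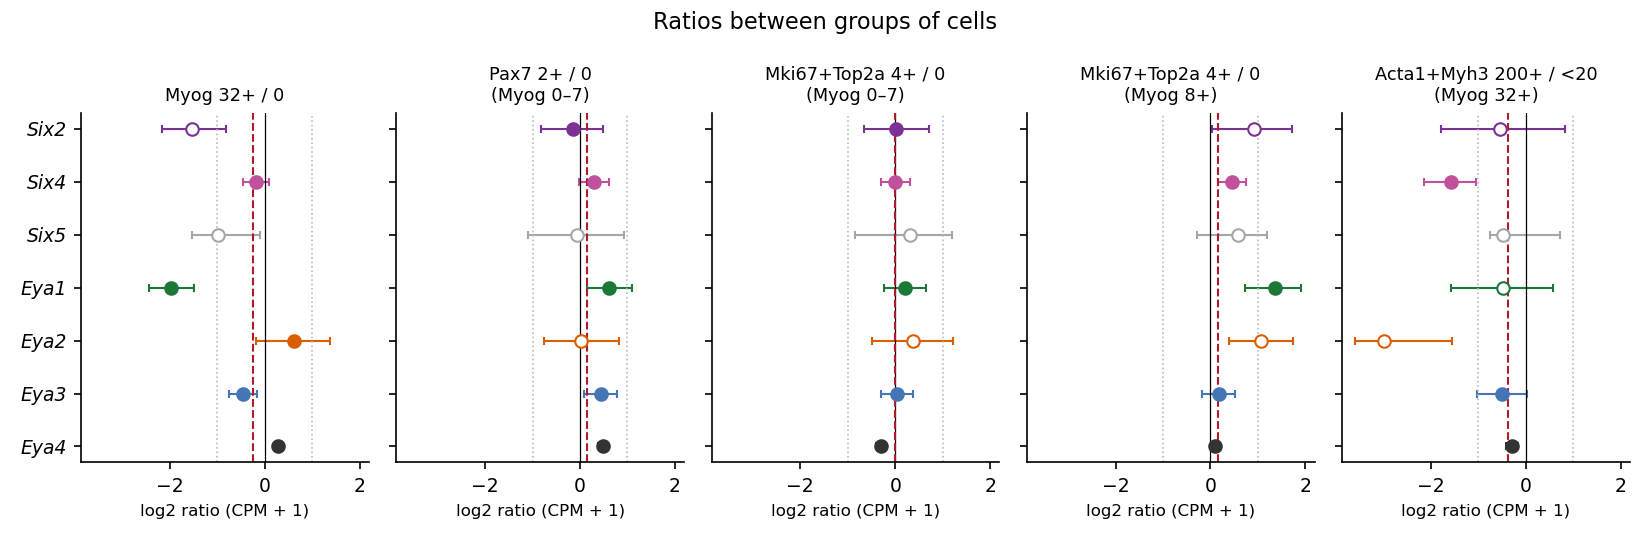
Log2 ratio of CPM plus 1 of each member in the 5 comparisons between groups of cells, with 95% counting intervals. Filled points had at least 50 UMIs in every file, open points did not, the dotted lines mark 2-fold and the red dashed line the median of all genes tested. Eya1 is past 2-fold at -1.97 in the Myog comparison and at 1.35 in cycling Myog-positive cells, and Six4 at -1.58 in late cells.

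Some kept cells had little nuclear RNA, and the members differed in them. Malat1 is a transcript retained in the nucleus, and 467 of the 5481 kept cells had under 1000 CPM of it, here called Malat1-poor. In the thinned set, 414 such cells were compared with the 4783 others. Of 6 members tested 4 were called lower and none higher. Over 11336 genes 23.2% were called lower and 0.459% higher, with a median of -0.35.

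Eya4 was 89.3 CPM in Malat1-poor cells and 505 CPM in the others, a log2 ratio of -2.49 (-2.70 to -2.28), and only 1.23% of the genes tested had a lower ratio. Eya1 had -1.81 (-2.66 to -0.86), while Eya3 at -1.12 (-1.66 to -0.61) and Six4 at -1.12 (-1.59 to -0.67) were nearer the bulk of genes. Eya2 had -0.41 (-1.31 to 0.49) and Six2 0.34 (-0.37 to 1.13), and Six5 had 2.25 UMIs per file in the Malat1-poor cells and was not tested. The 2 shortest genes, Six2 at 4.0 kb and Six5 at 3.96 kb, were the 2 with ratios above 0, but their intervals include 0. That of Six5 was 0.19 (-0.72 to 1.38). Eya4, the longest at 248 kb, had the lowest ratio. Eya2, at 177 kb the second longest, did not follow an order by length. Six4 at 13.8 kb and Eya3 at 85.8 kb had the same ratio. A link with length was not tested.

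**Figure D5:**
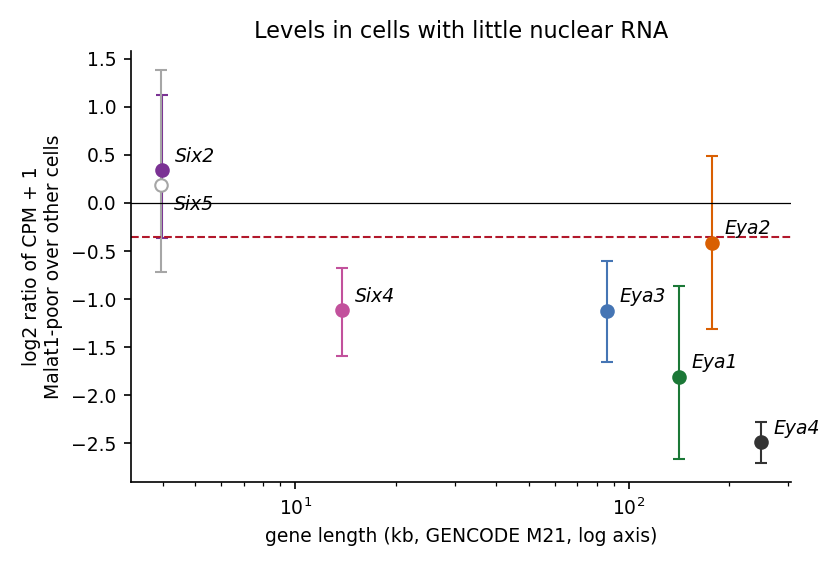
Log2 ratio of each member in 414 Malat1-poor against 4783 other cells, with 95% counting intervals, against the length of the gene in kb on a log axis. The red dashed line is the median of all genes tested, -0.35, and the open point had too few UMIs to be tested. Six2 and Six5 lie above 0 with intervals that include 0, and Eya4 lies lowest at -2.49.

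Since Eya proteins act through sine oculis proteins, the presence of both kinds of RNA in the same cells was described. At 5000 UMIs, 14.4% of cells held UMIs of both Six4 and Eya4 in 1 file, 1.06 times the product of the 2 shares (0.98 to 1.13). Of the cells with a Six4 UMI, 82.4% had an Eya4 UMI and 85.8% had one of any of the 4 Eya genes, against 77.1% and 80.7% of cells without. Six4 and Eya3 were found together in 2.87% of cells, 1.2 times the product (1.01 to 1.40), and 1.18 times (1.00 to 1.39, including 1) within Myog groups. Of 21 pairs it was the 1 whose interval over all thinned cells excluded 1, and some intervals may do so from counting error alone. Without thinning 6 pairs did, among them Six4 and Eya1 (1.23 to 1.53), Eya1 and Eya3 (1.22 to 1.56) and Six2 and Eya1 (1.24 to 2.14), where cells of unequal depth are mixed. Pairs of low members had wide intervals, such as 0.86 to 2.98 for Six2 and Eya1. All these are Poisson intervals of the joint count, too wide for pairs with a gene found in most cells, such as Eya4. The 82.4% of Six4 cells with an Eya4 UMI had a binomial interval of 79.8% to 84.8%, above the 77.1% of other cells. That difference was not tested. All these values include the Malat1-poor cells, in which Six4, Eya1, Eya3 and Eya4 were lower. The part of those cells in the co-detection was not tested.

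Finally, the course of each member was compared with those of 11337 genes over 15 classes of cells, formed by Myog group and cycling state. The classes share libraries and depth, and the correlations are descriptions. Eya1 was most like Tcf7l1 (Pearson r of 0.98), Prkce (0.98) and Nfia (0.97). Six2 was most like Cd2ap (0.99), Arhgef10l (0.99) and Rtl3 (0.98). Eya4 was most like Myo10 (0.93), Gse1 (0.92) and Rab5a (0.91).

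The nearest genes to Six4 were less alike, with Zbtb25 (0.89), Dcaf7 (0.88) and Yaf2 (0.88). For Eya2 they were Npl (0.88), Wdr4 (0.86) and Tmed7 (0.85), and for Eya3 Rictor (0.97), 2610035D17Rik (0.94) and Tnks (0.92). Six5 had too few UMIs for this. Between members, Six2 and Six5 (0.89), Six5 and Eya1 (0.87) and Six2 and Eya1 (0.85) had the highest r. Eya1 and Eya4 had an r of 0.05. The values with Six5 rest on 0 to 7.25 UMIs per file in a class and carry little weight.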

How the data were processed

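Each of the 4 files holds UMI counts per gene and cell barcode, deposited by the authors. They came from Cell Ranger 7.1.0 per the file headers, while the submitters' processing notes name Cell Ranger 3.1.0 and the builds mm10 and GRCm39. The annotation and the treatment of introns are not given in the sources used here. Coordinates are from GENCODE M21 on GRCm38, in which 99.8% of gene identifiers were found, and promoter windows from RefSeq on GRCm38.p6.

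A barcode was kept if it occurred in all 4 files and averaged 1000 genes or more and less than 10% mitochondrial UMIs. Doublets were not called. For comparisons at equal depth, 5000 UMIs were drawn per cell and file, which left out 284 cells. Values were computed per file and averaged. Intervals are exact 95% Poisson or Clopper-Pearson (binomial) intervals at the mean count of 1 file and cover counting error only. Ratios use CPM plus 1. Named genes are the members, the list genes with the 2 highest and 2 lowest Myog ratios, and the 3 genes most like each member. Other list genes were named after their values were seen. The comparison of Malat1-poor with other cells and the group ratios without them were added after the data were seen. Members, lists and groups were chosen with earlier results of these data known. Python 3.11.15, numpy 2.4.6 and scipy 1.17.1 were used.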

Additional observations from a re-analysis of the deposited data

Results flagged for a closer look

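The log2 ratio of Eya4 between cycling and non-cycling cells had opposite signs in the 2 Myog ranges, in every file. It was -0.31 among cells with 0 to 7 Myog UMIs and 0.094 among those with 8 or more. The difference was not tested, the 4 files hold the same cells, and the second ratio was -0.11 and -0.14 under the 2 other scalings.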

How the results depend on the processing

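No paired analysis was possible because the design has 1 group and no result comes from a test. No called member changed sign in any setting. Of 140 recomputed counts of called members 128 were within 1.5 times the reported count, but most of these were 0 in both. The 12 others all fell on results reported as 1 called member, which are listed below. For levels 46 of 49, and for shares of cells 41 of 56, stayed within their intervals.

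The level of Eya1 was 12.5 CPM as a mean over cells, and that of Eya4 was 473 CPM with the stricter cell filter and 508 without Malat1-poor cells. Shares of cells rose with depth. Without thinning they were 5.09% for Six2, 35.2% for Six4, 1.04% for Six5, 12.1% for Eya1, 3.79% for Eya2, 28.9% for Eya3 and 89.3% for Eya4, and at 8000 UMIs 3.53%, 26.5%, 0.711%, 8.40%, 2.75%, 21% and 87.3%. Eya4 was found in 82.0% without Malat1-poor cells.

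Members lower with Myog numbered 2 (Six2 added) without thinning, with groups and values from different files, with a minimum of 20 UMIs and with none. Members higher in cycling Myog-positive cells numbered 0 with higher group edges, 2 (Eya2 added) with groups and values from different files, a minimum of 20 or none, and 1 to 2 on leaving out 1 replicate. Late cells had 2 lower members (Eya2 added) without thinning, with a minimum of 20 and with none.

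Counts over all genes moved more. Genes lower with Myog numbered 1768, and 1152 (TMM factors) to 2560 over the settings, and those higher 880, and 767 to 1269. Genes higher in cycling Myog-positive cells numbered 892, and 631 to 1330. Genes higher with Pax7 numbered 101, and 32 to 212 over the settings, and those lower 1, and 0 to 11. Genes lower in cycling Myog-low cells numbered 228, and 389 without a minimum. Genes higher in late cells numbered 452, and 291 to 956, and those lower 1007, and 540 to 2422. The cause was not tested. Counts of Six5 limit every statement on it.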

Other observations

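In the 463 barcodes left out of the kept cells, the 4 files gave 1193.5 UMIs of Eya4 on average, 58.3 of Eya3, 33.8 of Six4, 28.5 of Eya1 and 6.0 of Eya2, while Six2 and Six5 had 0.750 each. Among the cofactor genes, the Tle family gene Tle5 was the most abundant at 227 CPM over kept cells. Tle3 followed at 29.8 and Tle1 at 20.2, whereas Dach1 stood at 3.14 and Dach2 at 0.175 CPM. Dach1, a corepressor gene of the same network, was lower in cycling than in non-cycling cells with 0 to 7 Myog UMIs, at 2.95 against 13.9 CPM and a log2 ratio of -1.89. Of 9 partners and corepressors tested in that comparison 1 was called lower and none higher, with a median of -0.16. Over all 9600 genes tested, 2.38% were called lower and 6.65% higher.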
